A study of Mus musculus with 19 samples.

Results

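The genes described here are 10 that mark the cortical hem and the choroid plexus: the Wnt ligand genes Wnt3a, Wnt8b and Wnt2b, the BMP ligand genes Bmp4, Bmp6 and Bmp7, and the transcription factor genes Lmx1a, Lmx1b, Msx1 and Msx2. They are 10 of 21887 protein-coding genes in the annotation. Accessible chromatin was mapped by ATAC-seq, in which a transposase cuts open DNA and tags it with adapters. A summit is the highest point of a peak of these cuts. Each summit went to the protein-coding gene whose nearer end lay closest, if that end was within 100 kb. The assignment is by position alone and says nothing of which gene a region acts on. By this rule the 10 genes held 1638 of 1547369 deposited summits, and 513 of 553128 in the matched set, for which every library was cut to its best-scoring summits at the length of the shortest list. Matched summits no more than 200 bp apart were chained into regions, and 41 of 44884 regions with summits from at least 2 libraries belonged to these genes. Of the 513 matched summits, 501 lay inside such regions and 12 outside.

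The libraries came from mouse forebrain at embryonic day 14, from cells pulled out on magnetic beads by Prom1, a surface protein of neural progenitors. Foxc1 encodes a forkhead factor that the meninges need in order to form, and the meninges make retinoic acid. The 6 diet mutants carried the Foxc1 alleles hith, a hypomorph, and LacZ, an insertion, and came from the retinoic acid diet. The 4 mutants carried the same alleles without the diet. The 5 diet controls were Foxc1 wild type on the diet, and the 4 controls were Foxc1 wild type off it. Both alleles are germline changes, so Foxc1 is altered in all cells and not in the meninges alone. The labels give no dose or time of the diet, no batch, date or sex, and do not state that each library is a different embryo or litter. The p-values below therefore reflect variation among libraries, which may be technical. Mutant 1 has a genotype label that reads Foxc1 WT, against its title. It was kept among the mutants, and values without it are given for part of the results that it moved.

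The cortical hem is a strip of neuroepithelium at the dorsal midline of the telencephalon, between the hippocampal primordium and the choroid plexus. It secretes Wnt and BMP ligands that pattern the neighbouring hippocampus, and it gives rise to Cajal-Retzius neurons. The choroid plexus epithelium, which makes cerebrospinal fluid, forms beside it and needs BMP signalling. Lmx1a sets hem identity against cortex, and Msx1 and Msx2 are targets of BMP signalling.

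Promoter sequences are shown for Msx2 and Wnt8b, the members with a matched summit in all 19 libraries within 1 kb of an end, and for Msx1, where that held in 17. Each is the 250 bases before the annotated start, read 5′ to 3′ on the gene's strand, from RefSeq on GRCm38.p6. Capitals run from the first to the last base of the window at which matched summits of the start region lay, and Wnt8b, with none there, has no capitals. The Msx1 region runs past the start into the gene, so its capitals stop at the end of the window. The windows are chr13:53472781-53473030 (minus strand) for Msx2, chr5:37824586-37824835 (minus strand) for Msx1 and chr19:44493222-44493471 (plus strand) for Wnt8b.
Msx2: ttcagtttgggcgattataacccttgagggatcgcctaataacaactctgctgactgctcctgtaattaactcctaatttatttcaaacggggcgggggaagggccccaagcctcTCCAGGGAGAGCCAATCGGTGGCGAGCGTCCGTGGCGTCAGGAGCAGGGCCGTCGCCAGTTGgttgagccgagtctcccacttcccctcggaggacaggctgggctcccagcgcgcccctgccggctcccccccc
Msx1: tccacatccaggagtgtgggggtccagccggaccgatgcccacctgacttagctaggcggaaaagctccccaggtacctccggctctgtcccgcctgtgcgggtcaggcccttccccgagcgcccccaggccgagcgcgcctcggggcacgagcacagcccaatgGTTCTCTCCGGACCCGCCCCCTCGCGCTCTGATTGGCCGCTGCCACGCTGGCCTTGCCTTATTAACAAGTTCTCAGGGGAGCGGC
Wnt8b: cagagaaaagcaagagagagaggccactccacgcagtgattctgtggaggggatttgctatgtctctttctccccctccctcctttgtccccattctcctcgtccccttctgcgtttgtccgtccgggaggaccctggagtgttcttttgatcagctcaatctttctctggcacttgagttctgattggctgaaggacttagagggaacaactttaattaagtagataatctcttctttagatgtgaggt

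At Msx2 the matched summits of all 19 libraries fell within 62 bases, from 135 to 74 bases before the start. At Msx1, 16 libraries had a matched summit in the window, in its last 85 bases, and the whole start region, with 17 libraries, spans chr5:37824532-37824670. The capitals of Msx2 hold the letters CCAAT, 124 bases upstream, while GGGCGG at 160 and TAATTA at 187 bases upstream lie outside them. The capitals of Msx1 hold, both on the opposite strand, CCAAT at 54 bases and GGGCGG at 72 bases upstream, with a further CCAAT outside, on the gene's strand at 91 bases. In the Wnt8b window, CCAAT stood on the opposite strand at 66 bases, CTTTGT at 168 bases and TAATTA at 36 bases upstream. All motifs searched, on both strands, are named here with their share of 32851 promoters, beside the 9 members in the promoter table, which does not list Bmp7. CCAAT occurred in 5 members (33.8% of promoters) and GGGCGG in 7 (32.7%). The letters TAATTA occurred in 2 members, Wnt8b and Msx2 (4.84% of promoters), while CAATTA, which shares most of its letters with it, occurred in 0 (7.17%). The letters CTTTGT occurred in 1 (16.5%), while CTTTGA, which differs in its last letter, occurred in 0 (13.8%). GGCGCC occurred in 2 (9.59%) and CAGCTG in 0 (13.0%). A match is a run of letters and not a bound site. The Msx2 and Msx1 windows were 61.6% and 68.0% G and C and the Wnt8b window 48.4%, against a median of 52.4% over all promoters.

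Open chromatin at these genes was mostly away from their ends. Of the 41 regions, 7 (17.1%) lay within 1 kb of a gene end and 26 (63.4%) beyond 10 kb, against 32.7% and 46.0% of the 36032 regions within 100 kb of a gene end, which the rule could have taken. Their median distance to the nearer end was 24.7 kb, against 7.56 kb for those regions. Every library had a summit in 9 member regions (22.0%, against 31.3% of regions within 100 kb of an end), and 16 (39.0%, against 37.1%) were open in 9 or fewer libraries. All 10 genes held at least 1 region, against 65.3% of all genes. A region present in every library was held by 5 of 10, against 8742 of the 14284 genes that held a region, or 39.9% of all genes.

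**Figure D1:**
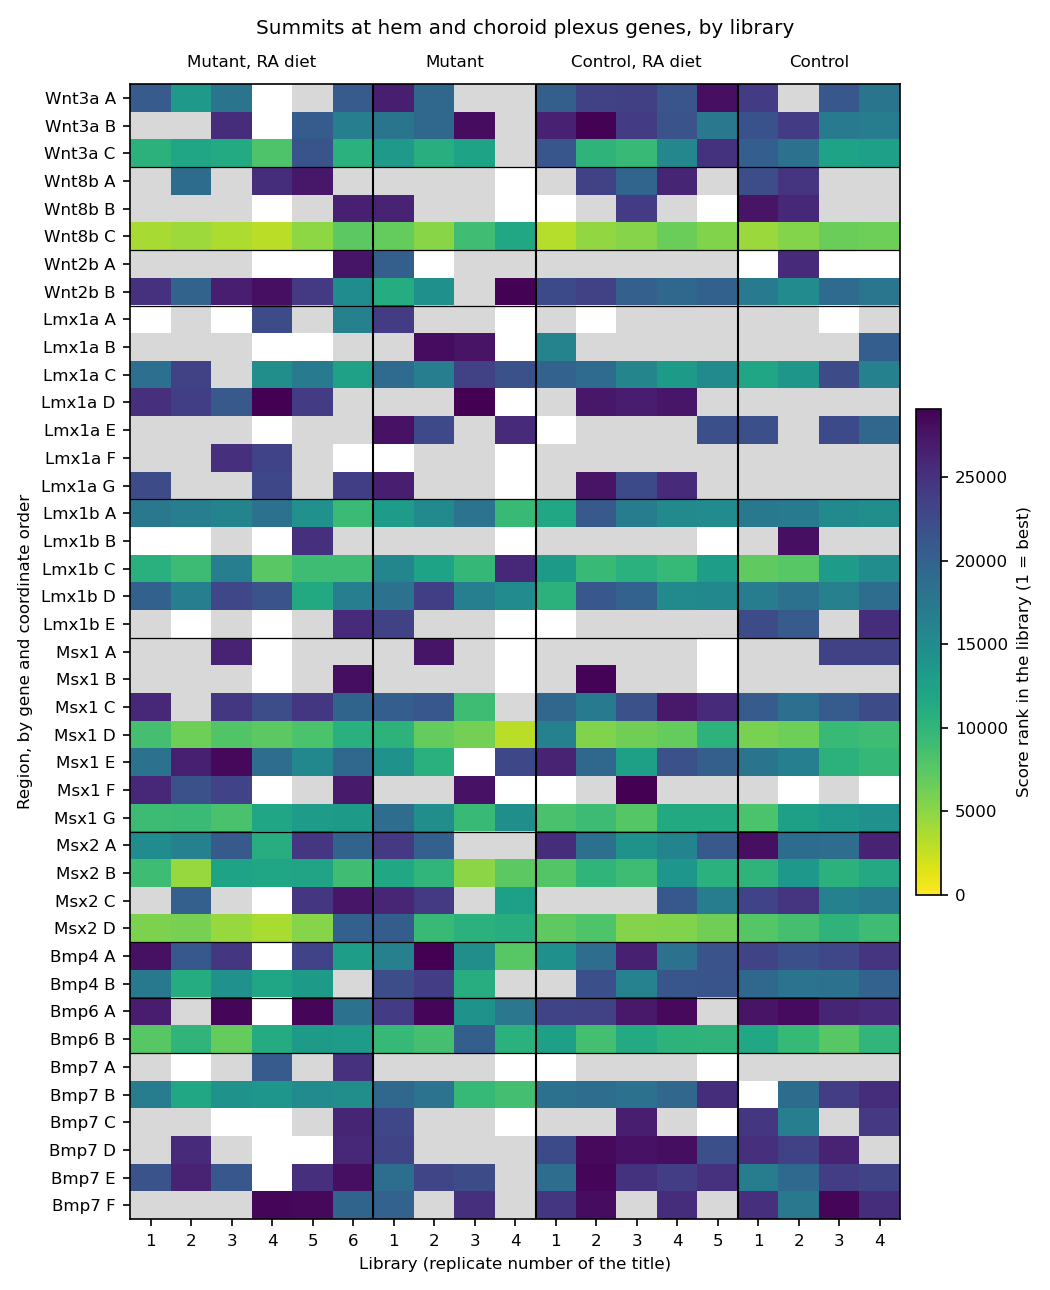
Score rank of each of the 41 regions (rows, by gene and coordinate) in each of the 19 libraries (columns, by group); colour gives the within-library rank in the matched set, grey a deposited summit below that set, and white no deposited summit. Rows coloured across all columns are the 9 regions present in every library, among them Wnt8b C, Msx2 B and Msx2 D.

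**Figure D2:**
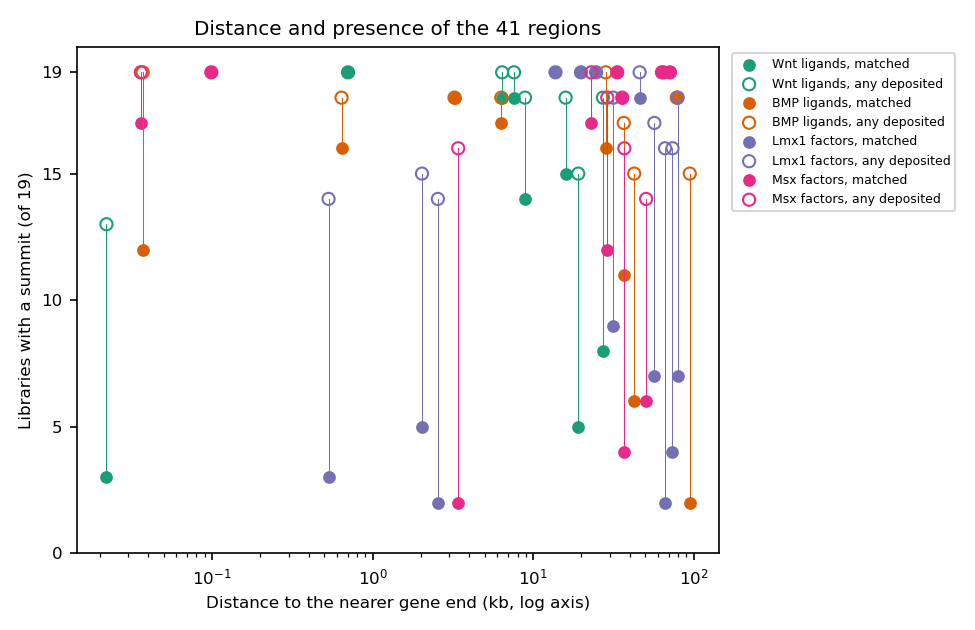
Distance of each of the 41 regions to the nearer end of its gene (horizontal, kb, log axis) against the number of libraries with a summit there (vertical, of 19); filled points count matched summits and open points any deposited summit. Regions in all 19 libraries lie both near an end, as Msx2 B at 0.099 kb and Wnt8b C at 0.703 kb, and far from one, as Msx1 G at 71.1 kb.

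The ends of the genes fell into 3 kinds, open in all, some or none of the libraries. Wnt8b and Msx2 had such an end, with a matched summit within 1 kb, in 19 of 19 libraries, as 29.7% of all genes did. Msx1 had it in 17, Bmp6 in 16 and Bmp7 in 12 libraries, and Wnt2b and Lmx1a in 3 each. Wnt3a, Lmx1b and Bmp4 had it in 0 libraries, as 47.0% of all genes did. Among all deposited summits, Msx1 and Bmp7 also reached 19 libraries, Wnt2b, Lmx1a and Bmp6 reached 18, Wnt3a and Lmx1b had 1 and Bmp4 still had 0. A gene in that last set was therefore represented by distal or internal regions only, or nearly so.

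Wnt8b, a Wnt ligand of the hem and the hippocampal side of it, held the best-ranked member region in 16 of 19 libraries. Wnt8b C (chr19:44514605-44515009) lies 703 bases beyond the 3′ end of the gene and 21504 bases from its start. Its score rank ran from 3002 in diet mutant 4 to 7363 in diet mutant 6, with a median of 4034 over the 6 diet mutants. It was 6870, 5174, 8937 and 11814 in mutants 1 to 4, 3255, 4745, 5236, 6506 and 5547 in diet controls 1 to 5, and 4388, 5352, 6559 and 6399 in controls 1 to 4. A rank of 1 is the best-scoring summit, so the weakest standing of this region was in mutant 4, and the groups overlapped. The start of Wnt8b showed no matched summit in its 250-base window in any library and a weaker deposited one in 7. The other Wnt8b regions, A and B, lay 27227 and 19105 bases upstream and held matched summits in 8 and 5 libraries.

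Wnt3a, the Wnt ligand that marks the hem itself, had no matched summit at its start and 3 regions further off. Wnt3a C (chr11:59283141-59283197), 7604 bases inside the gene from its start, was present in 18 libraries, and mutant 4 lacked a matched summit there but had a deposited one. Wnt3a A, 8900 bases beyond the far end, was present in 14 libraries, and Wnt3a B (chr11:59263949-59264020), inside the gene, in 15. Wnt3a B had a matched summit in 3 of 6 diet mutants and 3 of 4 mutants, against 5 of 5 diet controls and 4 of 4 controls. All 4 libraries that lacked it carried the mutant genotype by title, and 3 of these had a weaker deposited summit.

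Wnt2b, a further Wnt ligand of the dorsal midline, had a weak start and a stronger region upstream. Wnt2b A lies across the start and was present in 1 of 6 diet mutants, 1 of 4 mutants, 0 of 5 diet controls and 1 of 4 controls. Wnt2b B (chr3:104967920-104968126), 6414 bases upstream, was present in 18 libraries, and mutant 3 had only a weaker summit there, at rank 33737. Its rank was 22542, 23410, 20150, 19299 and 20075 in diet controls, against 17280, 15030, 18922 and 17652 in controls. These groups did not overlap, and the region stood lower in every diet control. Among 18 member regions with a rank in all libraries of both groups it was the 1 that did not overlap, against 5.73% of all regions, so this share is near the background. Diet mutants spanned 14925 to 27966 (median 24565.5) and mutants 11066, 14508, 33737 and 28958, which overlap.

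Bmp4, a BMP ligand of the midline and choroid plexus, had 2 regions. Bmp4 A (chr14:46387412-46387435), 3240 bases inside the gene from its start, was present in 18 libraries, and diet mutant 4 had no deposited summit there. Bmp4 B, 28318 bases upstream, was present in 16. Neither of these regions was at an end of the gene.

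Bmp6 had a weak region near its start and a strong one within the gene. Bmp6 A, 641 bases upstream, was present in 16 libraries at a median rank of 26473. Bmp6 B (chr13:38410447-38410709), 64882 bases inside the gene, was present in all 19 at median ranks of 10685 in diet mutants, 10032 in mutants, 10266 in diet controls and 9751.5 in controls. Those 4 medians lie close together.

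Bmp7, a BMP ligand with wide expression in the dorsal midline, had 6 regions and none in every library. The promoter table gives no strand for it, so distances are to its lower or higher coordinate end. Bmp7 F (chr2:172940309-172940552), 37 bases above the higher end, was present in 3 of 6 diet mutants, 2 of 4 mutants, 3 of 5 diet controls and 4 of 4 controls. Bmp7 B (chr2:172789493-172789565) lies 78494 bases below the lower end. Its rank was 11644 to 16891 (median 14434) in the 6 diet mutants and 19276, 18074, 9560 and 8738 in mutants, against 18086, 18701, 18083, 19503 and 25309 in diet controls. In controls 2 to 4 it was 18781, 23799 and 25254, and control 1 had no deposited summit there. Every diet mutant stood better than every diet control, while mutants were spread on both sides.

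Lmx1b, a LIM homeodomain factor related to Lmx1a, had 3 regions in every library and no matched summit at its ends. Lmx1b A (chr2:33547103-33547188) lies 13784 bases beyond the 3′ end, Lmx1b C (chr2:33580765-33580828) 60274 bases and Lmx1b D (chr2:33616531-33616626) 24565 bases inside the gene from its start. Lmx1b C ranked from 7399 to 16615 (median 9103.5) in diet mutants. It ranked 15762, 12179, 9675 and 25714 in mutants, 13224, 9387, 10572, 9638 and 12751 in diet controls, and 7074, 7507, 13095 and 14895 in controls. Mutant 4 stood lowest of all libraries for this region, and the groups overlapped.

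Lmx1a, the factor that sets hem identity, had the largest set of regions together with Msx1, 7 each, but the least constant ones. Only Lmx1a C (chr1:167802551-167802951), inside the gene, came near to all libraries, with 18. The other 6 Lmx1a regions held matched summits in 2 to 9 libraries, yet 14 to 18 libraries had a deposited summit there. For most of these regions a library therefore differed in whether the summit was in the matched set, not in whether one was called.

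Msx1, a homeodomain target of BMP signalling, was open at its start and far upstream. Msx1 C (chr5:37824532-37824670), across the start shown above, was present in 17 libraries at a median rank of 21180. Msx1 D (chr5:37858000-37858115), 33420 bases upstream, ranked from 6447 to 10581 (median 8056) in diet mutants. It ranked 10308, 6837, 6081 and 2993 in mutants, 16273, 5529, 6278, 6901 and 10316 in diet controls, and 5849, 6411, 9520 and 9016 in controls. The best rank was in mutant 4 and the worst in diet control 1, and the groups overlapped. Msx1 G (chr5:37895564-37895922), 71078 bases upstream, was present in every library too, and Msx1 E, 35914 bases upstream, in 18.

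Msx2, also a homeodomain target of BMP signalling, was the member whose start was open in every library. Msx2 B (chr13:53472854-53472915), 99 bases upstream and shown in capitals above, ranked from 4493 to 12231 (median 10415) in diet mutants. It ranked 11612, 10003, 5035 and 7391 in mutants, 7761, 10044, 8986, 13861 and 10541 in diet controls, and 10222, 13549, 10369 and 11509 in controls. Its groups overlapped. Msx2 D (chr13:53536074-53536331), 63456 bases upstream, ranked 5691, 5953, 4466, 3675 and 5344 in diet mutants 1 to 5 and 20234 in diet mutant 6. It ranked 20504, 9551, 10466 and 10950 in mutants, 7234, 7982, 5414, 5483 and 6260 in diet controls, and 7647, 8625, 10134 and 9067 in controls. All diet mutants but the last ranked this distal region better than every mutant.

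**Figure D3:**
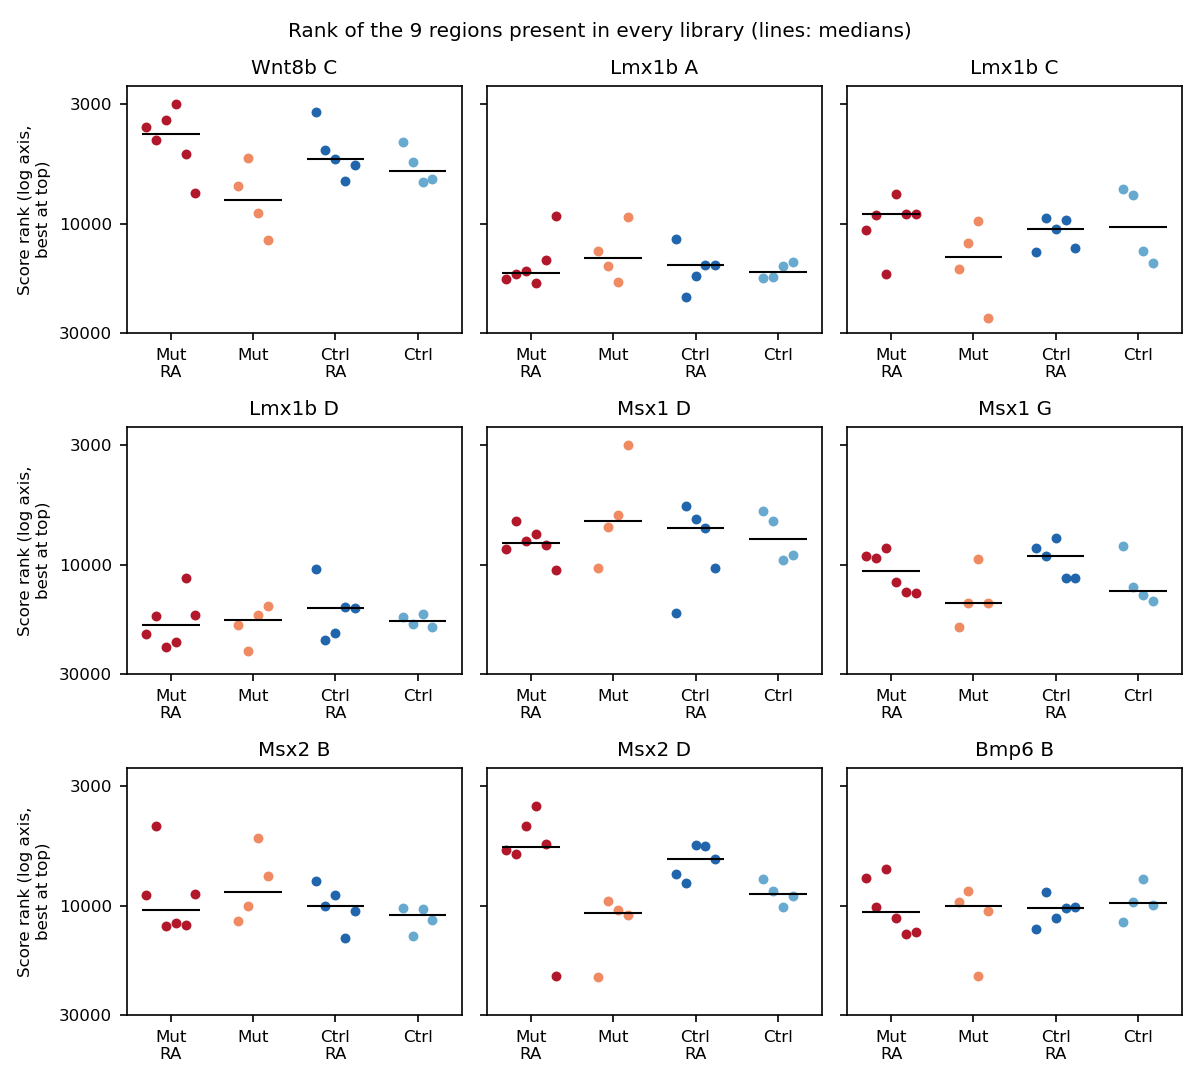
Within-library score rank (vertical, log axis, best at the top) of the 9 member regions present in all 19 libraries, by group; points are libraries and lines group medians. For Wnt8b C the medians are 4034, 7903.5, 5236 and 5875.5 in diet mutants, mutants, diet controls and controls, and for Msx2 D they are 5517.5, 10708, 6260 and 8846.

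Among the cell type markers, constantly open ends were most frequent for neural progenitors. A matched summit at an end in every library was found for 8 of 12 progenitor markers, against 29.7% of all genes. These were Sox2, Sox1, Vim, Hes5, Fabp7, Slc1a3, Emx1 and Emx2. Pax6, Nes, Hes1 and Prom1, the protein used to pull out the cells, had one in only some libraries. It was found for 1 of 11 hem markers (Wnt8b), 1 of 10 choroid plexus markers (Foxj1) and 1 of 7 Cajal-Retzius markers (Calb2). Of the 10 choroid plexus markers, 5 had no matched end summit in any library, against 47.0% of all genes. These were Ttr, Otx2, Clic6, Folr1 and Kcne2. The same count was 0 of 11 for meningeal fibroblast, 1 of 10 for endothelial, 1 of 7 for mural, 1 of 7 for microglia and macrophage, 0 of 5 for erythroid and 2 of 8 for neuron markers. Summed over the hem markers, matched summits numbered 16 to 22 in diet mutants, 11 to 22 in mutants, 16 to 21 in diet controls and 20 to 21 in controls. For choroid plexus markers the ranges were 13 to 20, 16 to 19, 14 to 20 and 14 to 17 in the same order of groups. In bulk libraries, fewer cells of a type and less open chromatin per cell cannot be told apart, and the part of cell makeup in the values of these genes was not tested. Sequencing depth is unknown. The number of deposited summits, at most 122591 a library and fewest in diet mutant 4, stands in for it, and the score at the limit of the matched set reached 53.7 in control 4. Matched summits near Foxc1 numbered 1 to 3 in diet mutants, 1 to 2 in mutants, 1 in each diet control and 1 to 2 in controls, which does not check the alleles.

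Mutants were compared with controls to ask what the Foxc1 alleles do without the diet. The number of matched summits near Bmp7 was 5, 2, 3 and 1 in mutants, against 4, 5, 4 and 4 in controls. Near Wnt3a it was 3, 3, 2 and 0 in mutants, against 3, 2, 3 and 3 in controls, and near Msx2 4, 4, 2 and 3, against 4 in each control. The low values sat in mutants 3 and 4 and, for Bmp7, also in mutant 2, and the groups overlapped for each of these genes. In limma on log2(summits + 0.5), a scale that understates the change of genes with few summits, 0 of 10 members passed an adjusted p of 0.05, where 0% of 10829 genes tested did. At an unadjusted p under 0.05 the count was also 0, against 5.71% of all genes. All 10 members passed the filter on low counts, a mean of at least 1 summit. The estimate was lower in mutants for 9 members, against 31.8% of all genes (24.99% higher). The median log2 difference was −0.28 over members and 0 over all genes. All remaining genes had an estimate of 0, which sets that median over all genes. The same libraries enter the estimate of every member, so the 9 signs are not separate evidence.

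The largest estimates were for Bmp7, −0.70 (SE 0.33, limma adjusted p = 0.795), and Wnt3a, −0.70 (SE 0.45, limma adjusted p = 0.795). Wnt8b (2, 1, 1 and 1 summits in mutants, against 3, 3, 1 and 1 in controls) gave −0.43 (SE 0.34), and Msx2 gave −0.30 (SE 0.18). Without mutant 1, the Bmp7 estimate was −1.004 (limma adjusted p = 0.285) and the Wnt3a estimate −0.98 (limma adjusted p = 0.490). Without mutant 4, the same estimates were −0.38 and −0.04. The size for these ligand genes thus turned on single libraries. The list of mutant 4 was the shortest of the mutants, with 49804 summits against 108298 to 115007 in the others. Its score at the limit of the matched set was 5.42, against 18.1 to 50.9 in the others. The part of this in its counts and ranks was not tested. Lmx1a stood the other way, with 4, 3, 3 and 2 summits in mutants against 2, 1, 3 and 3 in controls, a log2 difference of 0.40 (SE 0.32).

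**Figure D4:**
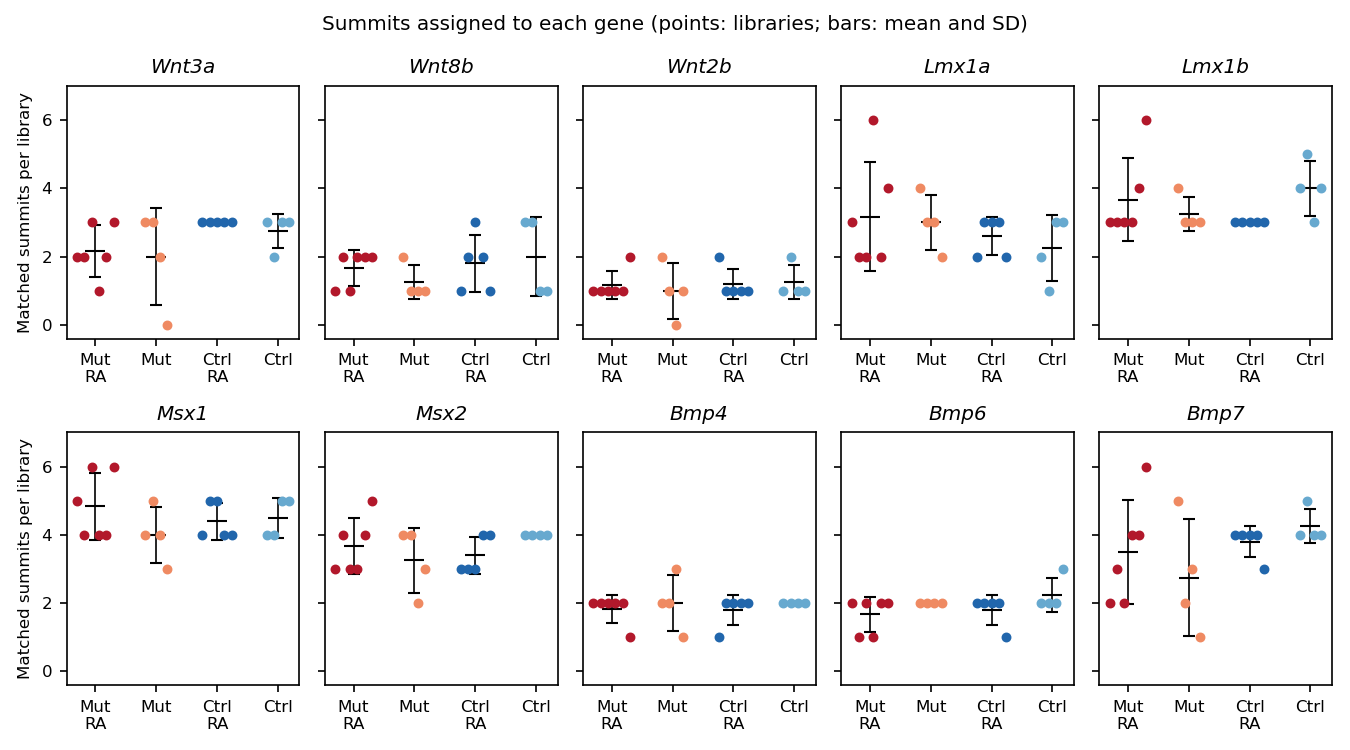
Matched summits assigned to each of the 10 genes (vertical, number per library) by group; points are libraries, and the marks with bars give the mean and SD (n = 6, 4, 5 and 4 for diet mutants, mutants, diet controls and controls). Mutants reach down to 0 for Wnt3a and 1 for Bmp7, while the points of all groups overlap for every gene.

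The sum over the 10 genes was 24.5 ± 6.24 matched summits in mutants (SD, n = 4), from 17 in mutant 4 to 32 in mutant 1, and 29.2 ± 0.957 in controls (SD, n = 4). The SD of mutants was the widest of the 4 groups. Diet mutants had 27.3 ± 4.93 (SD, n = 6), from 24 to 37, and diet controls 26.8 ± 2.17 (SD, n = 5), from 24 to 29. Diet mutant 6 and mutant 4 were the extremes of all libraries.

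Controls on and off the diet were compared to ask what retinoic acid does in wild type. The number of matched summits near Lmx1b was 3 in each diet control, against 4, 5, 3 and 4 in controls. This gave the smallest p among members, with a log2 difference of −0.34 (SE 0.17, limma adjusted p = 1). Of 10 members 0 were called, where 0% of all genes were, and 0 at an unadjusted p under 0.05, against 4.27% of all genes. The estimate was lower on the diet for 8 of 10, against 31.3% of all genes (25.7% higher), with a median of −0.11 against 0.

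In the presence test of single regions, Lmx1b E (chr2:33643236-33643254), 2032 bases from the nearer end of the gene and upstream of its start, held a matched summit in 0 of 5 diet controls, against 3 of 4 controls. Its difference was −75 percentage points (exact p = 0.0476, adjusted p = 1, two-sided Fisher's test). A weaker deposited summit was there in 4 of 5 diet controls and 4 of 4 controls. It was the 1 member region of 41 with an unadjusted p under 0.05, against 2.62% of all regions, and 0 were called, against 0%.

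Diet mutants were compared with mutants to ask what the retinoic acid diet does where Foxc1 is mutated. The number of matched summits near Msx1 was 4 to 6 (median 4.5) in diet mutants, against 4, 5, 4 and 3 in mutants. Near Wnt3a it was 1 to 3 (median 2) in diet mutants, against 3, 3, 2 and 0 in mutants, and near Bmp7 2 to 6 (median 3.5), against 5, 2, 3 and 1. The ranges overlapped for all 3 genes. Of 10 members 0 were called by limma, where 0.0185% of genes were, and 0 had an unadjusted p under 0.05, against 6.81%. The estimate was higher on the diet for 7 of 10, against 34.96% of all genes (31.9% lower), with a median of 0.21 against 0. With all deposited summits this turned, to 1 higher and 9 lower, where 83.0% of all genes were lower. The median was then −0.54, against −0.38 over all genes. The smallest p was that of Msx1, with a log2 difference of 0.24 (SE 0.14, limma adjusted p = 0.719). Without mutant 4 that estimate was 0.13.

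The rank of the 9 regions present in every library was compared as well, with the values given above. Wnt8b C had a difference in −log2 rank of 0.87 (SE 0.29, limma adjusted p = 0.140), which is a 1.82-fold better rank in diet mutants. Msx2 D had 0.97 (SE 0.34, limma adjusted p = 0.154), or 1.96-fold. Of the 9 regions 0 were called, where 0.00767% of 13035 regions were, and these 2 had an unadjusted p under 0.05, against 17% of all regions. The next were Lmx1b C with 0.57 (SE 0.28, limma adjusted p = 0.308) and Msx1 G with 0.39 (SE 0.24, limma adjusted p = 0.426), both higher in diet mutants. Msx1 D ran the other way, with −0.43 (SE 0.32, limma adjusted p = 0.507).

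The size or the p of these rank differences moved with single libraries. Without diet mutant 6, whose Msx2 D rank was 20234, Msx2 D gave 1.31 (limma adjusted p = 0.00858) and Wnt8b C 1.02 (limma adjusted p = 0.0321), both called. They were 2 of 9 member regions in that fit. Over all regions 792 were called in it, against 1 of 13035 in the main fit, so the rise was not particular to these 2 regions. Regions were rebuilt for each fit without a library, so the total behind 792 need not be 13035. Without mutant 4, Msx2 D gave 1.02 (limma adjusted p = 0.291) and Wnt8b C 0.67 (limma adjusted p = 0.370), with 0 regions called. Without mutant 1 the values were 0.72 (limma adjusted p = 0.241) for Msx2 D and 0.93 (limma adjusted p = 0.101) for Wnt8b C, with 373 regions called. Msx1 D gave −0.69 without mutant 1 (limma adjusted p = 0.220) and −0.099 without mutant 4 (limma adjusted p = 0.938). Msx1 G gave 0.24 without mutant 1 (limma adjusted p = 0.623), and Lmx1b C gave 0.30 without mutant 4 (limma adjusted p = 0.708). The number of deposited summits moved with this contrast, at most 87470 in diet mutants against 49804 to 115007 in mutants, and its part in the ranks was not tested. Among 10 member regions ranked in all libraries of both groups, 0 had ranks that did not overlap, against 1.97% of all regions.

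Diet mutants were compared with diet controls to ask for a genotype difference on the diet. The number of matched summits near Wnt3a was 1 to 3 (median 2) in diet mutants, against 3 in each diet control. Near Lmx1b it was 3 to 6 (median 3) in diet mutants, against 3 in each diet control. Wnt3a gave a log2 difference of −0.45 (SE 0.39, limma adjusted p = 1) and Lmx1b 0.21 (SE 0.15, limma adjusted p = 1). Of 10 members 0 were called, where 0.0277% of genes were, and 0 had an unadjusted p under 0.05, against 3.07%. The estimates split 5 higher and 5 lower around a median of 0.00. With all deposited summits all 10 were lower in diet mutants, as were 77.8% of all genes. The median was then −0.39, against −0.25 over all genes. Bmp7 B was 1 of 14 member regions whose ranks did not overlap between these groups, against 0.299% of all regions, and it was singled out after its values were seen. Its rank could not enter the limma fit, because control 1 had no summit there.

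Diet mutants were also set against controls, the pair that differs in both factors. The number of matched summits near Bmp6 was 1 to 2 (median 2) in diet mutants, against 2, 2, 2 and 3 in controls. Near Lmx1a it was 2 to 6 (median 2.5), against 2, 1, 3 and 3. Bmp6 gave a log2 difference of −0.37 (SE 0.19, limma adjusted p = 0.805) and Lmx1a 0.39 (SE 0.29, limma adjusted p = 0.989). Of 10 members 0 were called, where 0.0277% of genes were, and 0 had an unadjusted p under 0.05, against 6.66%. The estimate was lower in diet mutants for 8 of 10, against 34.6% of all genes (28.9% higher), with a median of −0.13 against 0.

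The interaction asks whether the diet acted differently in mutants and in wild type. Of 10 members 0 were called, where 0.00923% of genes were, and 0 had an unadjusted p under 0.05, against 3.49%. The estimate was above 0 for 9 members, against 37.3% of all genes (32.2% below). The median over members was 0.32, with Bmp7 at 0.52 (SE 0.44) and Lmx1b at 0.46 (SE 0.23, limma adjusted p = 1). With all deposited summits the signs turned, to 2 above 0 and 8 below, where 67.1% of all genes were below. The median was then −0.12, against −0.16 over all genes. The same controls and mutants enter this and the pairwise contrasts, so the signs are not separate evidence. For ranks of regions, limma called 0 of 9 in the interaction, and 0% of all regions, with 0 at an unadjusted p under 0.05, against 4.48%.

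Ranks were compared in the other pairs of groups too. For mutants against controls, limma called 0 of 9 member regions, and 0% of all, with 0 at an unadjusted p under 0.05, against 12.8%. The largest positive difference in −log2 rank was that of Msx2 B at 0.48 (SE 0.31, limma adjusted p = 0.505), and Lmx1b C gave −0.55 (SE 0.31, limma adjusted p = 0.450). The counts were likewise 0 and 0 for diet controls against controls (0% and 5.88% of all regions), for diet mutants against diet controls (0% and 1.73%) and for diet mutants against controls (0% and 13.4%). Ranks that did not overlap were found in 0 of 12 member regions for mutants against controls, against 2.68% of all regions, and in 0 of 13 for diet mutants against controls, against 3.94%. Counts of matched summits per gene did not separate any pair of groups for any of the 10 members. The share of all genes they separated was 0.286% for mutants against controls, 0.545% for diet controls against controls, 0.185% for diet mutants against mutants, 0.0646% for diet mutants against diet controls and 0.536% for diet mutants against controls.

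All 19 libraries could be used for the presence of single regions, with the diet tested within genotype and the genotype within diet. Lmx1a E (chr1:167905634-167905669), 56910 bases beyond the 3′ end, held a matched summit in 0 of 6 diet mutants and 3 of 4 mutants, and in 1 of 5 diet controls and 3 of 4 controls. Its difference was −65.9 percentage points on the diet (exact stratified p = 0.0146, adjusted p = 0.889). Lmx1a D (chr1:167817155-167817248), inside the gene, showed the opposite, with 5 of 6 diet mutants and 1 of 4 mutants, and 3 of 5 diet controls and 0 of 4 controls. Its difference was 60.2 points (exact stratified p = 0.0198, adjusted p = 0.889). The distal region had fewer matched libraries and the internal one more on the diet in both genotypes, and neither passed the adjusted threshold. They were the 2 member regions of 41 with an unadjusted p under 0.05 for the diet, against 4.15% of all regions, and 0 were called, against 0%.

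Among all deposited summits these patterns mostly closed. Lmx1a E had a deposited summit in 5 of 6 diet mutants, 4 of 4 mutants, 4 of 5 diet controls and 4 of 4 controls. Lmx1a D had one in 6 of 6 diet mutants, 3 of 4 mutants, 5 of 5 diet controls and 4 of 4 controls. In most libraries the summit was called and differed in its rank.

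For the genotype, Bmp7 D (chr2:172831242-172831329), 36697 bases below the lower end, stood out by p alone. It held a matched summit in 2 of 6 diet mutants and 1 of 4 mutants, against 5 of 5 diet controls and 3 of 4 controls. Its difference was −58.9 percentage points (exact stratified p = 0.0216, adjusted p = 1). Without mutant 1 it was −66.7 points (exact stratified p = 0.00563, adjusted p = 1). A deposited summit was there in 4 of 6 diet mutants, 4 of 4 mutants, 5 of 5 diet controls and 4 of 4 controls. It was the 1 member region of 41 with an unadjusted p under 0.05 for genotype, against 1.68% of all regions, and 0 were called, against 0%. Wnt3a B, described above, followed with −40 points (exact stratified p = 0.0909, adjusted p = 1).

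In the pairwise presence tests 0 of 41 member regions and 0% of all regions were called in each contrast. With an unadjusted p under 0.05 there were 0 for mutants against controls (0.152% of all regions), 1 for diet mutants against mutants (1.21%), 0 for diet mutants against diet controls (0.305%) and 2 for diet mutants against controls (2.75%). The 1 region in diet mutants against mutants was Lmx1a E, and the 2 against controls were Lmx1a E and Lmx1a D. Msx1 F (chr5:37875150-37875205), 50575 bases upstream, held a matched summit in 4 of 6 diet mutants, 1 of 4 mutants, 1 of 5 diet controls and 0 of 4 controls. Diet mutants differed from controls by 66.7 points there (exact p = 0.0762, adjusted p = 1). The smallest p these group sizes allow is 0.0286 for mutants against controls, 0.00794 for diet controls against controls, 0.00476 for diet mutants against either group off the diet and 0.00216 for diet mutants against diet controls. At such a p no single region can pass the adjustment over 44884 regions by itself. The 0 called therefore says little of any 1 region.

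With every deposited summit in place of the matched set, the sum over the 10 genes was 27 to 79 (median 71) in diet mutants, 128, 123, 115 and 41 in mutants, 70, 90, 100, 97 and 57 in diet controls, and 88, 90, 121 and 134 in controls. Lmx1a, with the most summits, had 6 to 18 (median 12.5) in diet mutants, 24, 25, 31 and 10 in mutants, 17, 16, 21, 22 and 12 in diet controls, and 19, 19, 23 and 29 in controls. Lmx1b had 3 to 11 (median 9) in diet mutants, 23, 17, 13 and 3 in mutants, 9, 11, 14, 17 and 8 in diet controls, and 13, 15, 17 and 19 in controls. For both genes every diet mutant lay below every control, 2 of 10 members, against 3.37% of all genes. In the matched set the same groups overlapped for all 10 members.

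Against controls, all 10 members had a lower estimate in diet mutants on this count, as did 83.0% of the 14784 genes tested. The median was −0.73 over members and −0.50 over all genes. Lmx1a gave −0.95 (SE 0.32, limma adjusted p = 0.202), Lmx1b −0.96, Bmp7 −0.91, Msx2 −0.85, Bmp6 −0.75 and Wnt3a −0.72. These 6 of 10 members had an unadjusted p under 0.05, against 24.4% of all genes, and 0 were called, against 0.0541%. Against mutants, Lmx1a gave −0.86 and Wnt3a −0.66 in diet mutants, the 2 members with an unadjusted p under 0.05, against 17.6% of all genes, with 0 called, against 0%. In the other 4 contrasts limma on all deposited summits called 0 of 10 members, and 0 had an unadjusted p under 0.05. The shares of all genes called and under that p were 0% and 1.92% for mutants against controls, 0.0135% and 2.9% for diet controls against controls, 0% and 4.13% for diet mutants against diet controls, and 0% and 1.52% for the interaction. The total number of summits per library was lower in diet mutants as well, so the lower counts near these genes move with the length of the lists, and the part of that length was not tested.

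Regions were also built from all deposited summits. The 10 genes held 160 such regions, of which 18 (11.3%) were present in every library and 50 (31.3%) in 4 or fewer, against 12.4% and 30.8% of all 150489 regions. For the diet, 15 of 160 had an unadjusted p under 0.05 in the stratified exact test, against 7.22% of all regions. All 15 were lower on the diet, and so were 10648 of the 10860 among all regions at that p. The shared direction is therefore that of the background. The exact test called 0 of them, against 0%. In the matched set, 1 of 41 was lower on the diet at that p, against 2.18%. Between pairs of groups, 0 of 160 were called by the exact test, against 0%. At an unadjusted p under 0.05 there were 0 for mutants against controls (0.0857% of all regions), 3 for diet controls against controls (2.73%), 5 for diet mutants against mutants (2.7%), 2 for diet mutants against diet controls (0.409%) and 10 for diet mutants against controls (5.08%). Genotype stratified by diet gave 2 (1.85%). An example chosen after its values were seen is a region inside Lmx1a (chr1:167733577-167733682), with a summit in 0 of 6 diet mutants and 2 of 4 mutants, and in 0 of 5 diet controls and 4 of 4 controls (exact stratified p = 0.00106, adjusted p = 0.494).

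Other genes of the pathways were measured as lists. Of 20 further hem and choroid plexus genes, 11 had enough summits for the test, and 0 were called in any of the 6 contrasts. The same held for 23 of 24 Wnt receptors, effectors and targets, 5 of 8 Wnt antagonists, 6 of 8 BMP antagonists and 10 of 11 antihem and cortical selector genes measured, with 0 called in each. Of 16 measured among 18 BMP receptors, effectors and targets, 1 was called, in diet mutants against diet controls, where 0.0277% of all genes were. Bmpr1a, a type I BMP receptor, had 1 to 2 matched summits (median 1) in diet mutants, against 2, 3, 3, 3 and 3 in diet controls. It fell by 1.00 on the log2 scale in diet mutants (SE 0.16, limma adjusted p = 0.0320). Mutants had 3, 2, 2 and 3 and controls 3, 3, 2 and 3 summits near it. The call was lost in 14 of 19 fits that each left out 1 library (limma adjusted p = 0.00180 to 0.191 over them). In these fits the log2 difference stayed between −1.13 and −0.98. With all deposited summits it was −0.72 (limma adjusted p = 0.723). With a score of at least 2 it was −0.62 and with ends within 20 kb −0.47, neither of them called. The call was also lost with no filter on genes (limma adjusted p = 0.0506), gene bodies widened by 5 kb (0.102) and the replicate number as a block (0.269). It held with a pseudocount of 1 (limma adjusted p = 0.0365). A matched end summit in every library was found for 1 of the 20 further hem genes (Foxj1), 12 of 24 Wnt receptors, effectors and targets, 3 of 8 Wnt antagonists, 11 of 18 BMP receptors, effectors and targets, 2 of 8 BMP antagonists and 3 of 11 antihem and selector genes. The share over all genes was 29.7%.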

How the data were processed

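Each library's file lists peak summits with a score. Per the submitters' processing notes, which give no versions or roles, MACS2, BWA, Signac and DiffBind and the builds mm10 and GRCm38 were used. Each list holds the summits of 1 library, with no scaling between libraries. The deposited score is read as a −log10 q value, since the smallest in each library is near −log10 of 0.05. Read counts were not used here, so depth is unknown, and a score grows with depth. Scores were therefore used only as ranks within a library. Each library was cut to as many of its best summits as the shortest list held. This makes lists equal in length but not in sensitivity: where no matched summit is seen, a weaker one may exist.

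The gene table is RefSeq on GRCm38.p6. Summits were assigned to the nearest end of a protein-coding gene within 100 kb and chained at 200 bp, keeping regions of at least 2 libraries. The promoter table gave strand and start for 9 of 10 members. Summits per gene, as log2(summits + 0.5), were fitted with limma 3.58.1 (trend, robust) in R 4.3.3 over 10829 genes that averaged 1 or more summits, 3260 of them alike in all libraries. The −log2 rank was fitted likewise over 13035 regions. Presence was tested with two-sided Fisher's exact tests and, over all libraries, exact tests stratified on the other factor, with differences pooled over the strata. All 19 libraries shared 1 spread per fit. P-values were adjusted by Benjamini-Hochberg over all features, with a threshold of 0.05. Tables and figures used Python 3.11.15, numpy 2.4.6, pandas 2.3.3 and matplotlib 3.10.9. The fit of summits per gene was checked on simulated data for mutants against controls, with large changes in genes of many summits. That check does not cover the rank fit, or small changes at genes with as few summits as most members.

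The members and lists were chosen with earlier results of these data known. Named regions were those in every library, the 6 with the smallest presence p and the 6 with the smallest rank p, and others named were added for completeness or after their values were seen. Same-numbered libraries were not paired in the main fits, since nothing in the labels links them.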

Additional observations from a re-analysis of the deposited data

Results flagged for a closer look

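Each gene's summits per library were screened for a library far from the others of its group, over 80 groups of 4 to 6 libraries, and 16 were found. A nominal rate of 1 in 20 would give 4, but it need not hold for these counts, so no excess is read from the 16. Counts this small are whole numbers with many ties, so a difference of 1 summit is enough when the rest are equal. Of matched summits, Wnt3a had 2 in control 2 (3 in the others), and Wnt8b had 2 in mutant 1 (1 in the others). Wnt2b had 2 in diet mutant 6, 2 in diet control 1 and 2 in control 2, with 1 in the others of each group. Lmx1b had 6 in diet mutant 6 (3 to 4 in the others) and 4 in mutant 1 (3 in the others). Bmp4 had 1 in diet mutant 6 and 1 in diet control 1, with 2 in the others. Bmp6 had 1 in diet control 5 and 3 in control 4, with 2 in the others. Bmp7 had 3 in diet control 5 and 5 in control 2, with 4 in the others.

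Of all deposited summits, Wnt3a had 1 in diet mutant 4 (3 to 4 in the others) and Bmp6 also 1 there (4 to 5). That library has the shortest list of summits. Bmp6 had 8 in diet control 2 (4 to 5 in the others). Diet mutant 6 was set apart for 3 genes, Wnt2b, Lmx1b and Bmp4, of which the first 2 were higher and the last lower.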

How the results depend on the processing

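Of the 10 genes, 0 were called by limma under any of 8 other settings or any of 19 fits that left out 1 library, and the lowest adjusted p was 0.194 (score of at least 2). The filter on low counts left 5 members with the shorter lists, 9 with gene bodies and 8 with ends within 20 kb. By presence, 0 regions were called under every setting run, members or not. In the pairwise tests a single region cannot pass by itself, so this says little of any 1 region. The cause was not tested for any change below.

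Over all genes, the number called for diet mutants against mutants (2) was 1 with a pseudocount of 1, 1 with the shorter lists (each library cut to 0.5 of the matched length), 1 with gene bodies widened by 5 kb, and 0 with all deposited summits or a score of at least 2. For diet mutants against diet controls (3) it was 0 under the last 3 of these settings and with the shorter lists, and 1 with ends within 20 kb. For diet mutants against controls (3) it was 1, 0, 1, 8 and 9 in the order first given. For the interaction (1) it was 0 with the shorter lists, gene bodies, all deposited summits and a score of at least 2. For diet controls against controls (0) it was 3 with no filter, and 2 each with the shorter lists, all deposited summits and a score of at least 2. Regions called by rank for diet mutants against mutants (1) were 0 on a linear percentile and 0 with chaining at 100 bp, and for diet mutants against controls (0) 1 on a linear percentile. Member regions in every library (9) were 7 with chaining at 100 bp, 2 with the shorter lists, 16 with a score of at least 2 and 18 with all deposited summits.

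Leaving out 1 library at a time, genes called ranged from 0 to 1 for mutants and from 0 to 1 for diet controls against controls, from 1 to 7 for diet mutants against mutants, 1 to 4 against diet controls, 1 to 13 against controls and 0 to 2 for the interaction. Without mutant 1 the last 4 of these were 1, 1, 1 and 0. Regions called by rank ranged from 0 to 338 for mutants against controls, 0 to 792 for diet mutants against mutants and 0 to 451 against controls, and stayed at 0 in the other 3 contrasts. Member regions in every library ranged from 8 to 11.

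Estimates changed sign for Lmx1b on the diet in controls (0.64 with the shorter lists), Msx1 in diet mutants against mutants (−0.33 with all deposited summits, −0.32 with a score of at least 2), Lmx1a in diet mutants against controls (−0.95 and −1.03 in the same order) and Wnt2b in mutants (0.084 with all deposited summits, and −0.71 to 0.061 leaving out 1 library, with 0.061 without mutant 3 and −0.71 without mutant 1). The presence difference changed sign for Lmx1a D (−9.09 points with a score of at least 2) and Msx1 F (−16.7 with all deposited summits and −16.7 with a score of at least 2).

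With the replicate number as a block, genes called were 0 in diet mutants against mutants, against diet controls and against controls, and 0 in the interaction. Of 13035 regions, those called by rank were 831 for diet mutants against mutants, 560 against controls and 1 for diet controls against controls. Among members, Msx2 D gave 1.32 (limma adjusted p = 0.00902) and Wnt8b C 1.09 (limma adjusted p = 0.0269) in diet mutants against mutants. The numbers are not shown to pair libraries: deviations of same-numbered libraries had a median correlation of 0.02 (−0.14 to 0.16 over 25 pairs), and 4 of 18 correlated best with their own number. The numbers used are those of the titles. The controls' deposited lists carry other numbers, 2 to 5 in place of 1 to 4, and a block on those was not run, so the block fits are given for completeness only.

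Depth limits all of this, since a library with few summits can lack a weak one without being closed there.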

Other observations

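The summed matched summits of the 10 genes varied between libraries most like those near Slc29a4, Nampt and Fbxw8, the 3 of 10829 genes with the highest correlation over the 19 libraries. Pearson's r was 0.91 for Slc29a4 (Spearman's rho 0.82), 0.88 for Nampt (0.83) and 0.87 for Fbxw8 (0.81). Without mutant 4 and diet mutant 6, the libraries farthest from the median of the sum, r was 0.71, 0.78 and 0.73. The libraries share their depth and their list length, and the 3 genes were picked for this likeness, so these are descriptions.

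As a share of all deposited summits, those near the 10 genes ran from 0.0823% in mutant 4 to 0.139% in diet mutant 6. Both libraries also held the extremes of the matched sum, 17 and 37.

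In regions of all deposited summits, Lmx1b chr2:33569432-33569456 had a summit in 0 of 6 diet mutants, 2 of 4 mutants, 2 of 5 diet controls and 4 of 4 controls. A region near Lmx1a, chr1:167942084-167942388, had one in 0 of 6, 3 of 4, 4 of 5 and 4 of 4 libraries in the same order of groups. For diet mutants against controls both had the smallest p these group sizes allow (exact p = 0.00476, adjusted p = 0.561), as single regions chosen after their values were seen. For that contrast 10 of 160 member regions had an unadjusted p under 0.05, against 5.08% of all regions.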
